A study of Mus musculus with 5 samples.

Results

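Lgr5-high cells of mouse small intestinal organoids were taken as the wells with at least 3 unique molecular identifiers (UMIs, the counted molecules) of Lgr5 among wells that held at least 3000 UMIs after the spike-in rows were dropped. By this rule 433 of 795 wells from 3 libraries were members, out of 1480 wells of that depth in all 5 libraries of the series. The members were chosen by their Lgr5 counts, so the level of Lgr5 and the share of Lgr5-high wells are descriptions and were not tested. The member wells were set against the 217 wells of the same 3 libraries that had 0 Lgr5 UMIs, called Lgr5-zero, while 145 wells with 1 or 2 Lgr5 UMIs stood in neither class.

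Single cells from dissociated organoids were sorted into 384-well plates that held barcoded primers, and the 3' ends of their transcripts were counted by SORT-seq. The groups described here were 1 plate of organoids with genotype WT, 1 plate with genotype Lkb1 +/- (het) and 1 plate with genotype Lkb1 -/- whose title carries the mark Bud, a mark that the labels do not explain. Lkb1 is the common name of Stk11, a kinase that activates AMPK and its relatives. All organoids grew in medium with 50 ng/mL Egf, 2.5% R-spondin1 conditioned medium and 1% Noggin conditioned medium, the 3 signals that keep an adult intestinal crypt growing in culture, so every group carried this stimulation of WNT signalling and block of BMP signalling. The labels name neither the mouse strain and age nor how the Lkb1 +/- and Lkb1 -/- lines were made, and do not say whether a line is 1 clone. With 1 plate per genotype, a difference between genotypes cannot be told apart from a difference between lines or plates.

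Lgr5 is a receptor for R-spondins and marks the crypt base columnar cells, the dividing stem cells at the bottom of intestinal crypts. R-spondin binding keeps the WNT receptors Fzd and Lrp at the cell surface by withdrawing the ubiquitin ligases Rnf43 and Znrf3, and WNT signalling then drives genes such as Axin2 and Ascl2. As cells leave the crypt base they pass through a dividing progenitor stage and become enterocytes, which absorb nutrients, or secretory cells, namely goblet, Paneth, enteroendocrine and tuft cells. In GRCm38 the Lgr5 gene lies on chromosome 10 at 115450314 to 115587780, and Stk11 lies on the same chromosome at 80115767 to 80130679.

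Lgr5-high wells were 145 of 251 wells in WT (57.8%, exact Clopper-Pearson 95% interval 51.4 to 64.0), 140 of 282 in het (49.6%, 43.7 to 55.6) and 148 of 262 in Bud (56.5%, 50.2 to 62.6). These intervals, like all others given for counts, cover counting error only, and the 3 of them overlap. When every well was thinned at random to 3000 UMIs, 47.4% of WT, 44.3% of het and 49.2% of Bud wells still held an Lgr5 UMI. Members had a median of 6 Lgr5 UMIs in WT, 7 in het and 7 in Bud, with highest wells of 20, 27 and 31. In CPM, counts scaled to the well's or sum's total UMIs, the lowest, median and highest member stood at 64.1, 412 and 1746.5 in WT, 115, 505 and 1805.6 in het, and 81.9, 432 and 1415.2 in Bud. Summed over members, Lgr5 was 404 CPM in WT, 534 in het and 423 in Bud, and member wells held 93.5%, 95.997% and 93.4% of each library's Lgr5 UMIs.

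Deeper wells reach 3 Lgr5 UMIs more easily, and the classes differed in depth. Lgr5-high wells had a median of 16763 UMIs in WT, 15752 in het and 17811.5 in Bud, against 9055.5, 12552 and 7786 for Lgr5-zero wells. Relative to the spike-in RNA added to each well, members also held more RNA, with a median of 28.2 UMIs per spike-in UMI in WT, 26.2 in het and 30.3 in Bud against 17.9, 23.002 and 17.7. An Lgr5-zero well of median depth allows up to 331 CPM of Lgr5 in WT, 239 in het and 385 in Bud, so it may still hold a cell that expresses the gene at the level of some members. The contrast of Lgr5-high against Lgr5-zero wells (gene counts, gene lists and named genes) was therefore repeated with all wells thinned to 3000 UMIs. It was also repeated with only wells of 8000 to 20000 UMIs (the depth range). The gene counts and named genes between libraries were repeated in both ways. Thinning kept the classes set by the full counts, so it cannot show the part of depth in the choice of members. The depth range did not equalise depth in Bud. There the Lgr5-zero median was 10513 UMIs, against 16339, 14580 and 14235 in member classes from lowest to highest Lgr5 CPM. In WT and het the Lgr5-zero medians, 13810 and 13266, lay within the span of the member class medians.

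**Figure D1:**
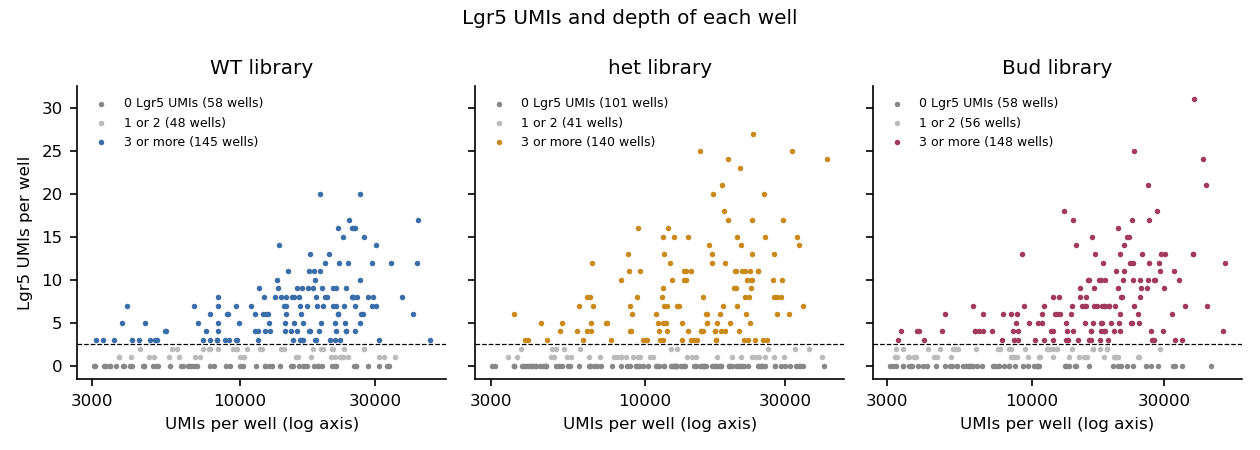
Lgr5 UMIs per well against all UMIs per well (log axis) in the WT, het and Bud libraries, 1 point per well, with the dashed line below 3 UMIs. Members (coloured, 145, 140 and 148 wells) lie further to the right than wells with 0 Lgr5 UMIs (58, 101 and 58), and reach 20, 27 and 31 UMIs.

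Over the whole series, the 384 barcode names were the same in all 5 tables, and 123 of them were kept in each of the 3 libraries used, so barcode names do not show whether plates share cells. Wells with over 2% of their UMIs from the nuclear RNA Kcnq1ot1 numbered 3 of the members in WT, 0 in het and 7 in Bud, against 4, 13 and 14 of the Lgr5-zero wells. The deleted gene, Stk11, stood at 20.9 CPM in WT, 16.2 in het and 14.3 in Bud Lgr5-high wells (53, 37 and 40 UMIs), and at 18.7, 10.0 and 0 CPM in Lgr5-zero wells. Stk11 UMIs thus remained in the library labelled Lkb1 -/-, in 24.3% of its member wells. A 3' tag outside the deleted part would still be counted, and the labels do not say which part was deleted, so these counts check nothing about the deletion.

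The promoters of the genes that separated members from Lgr5-zero wells are shown for 5 of them, as 300-base windows from RefSeq (GRCm38.p6, 250 bases before to 50 after an annotated start, read 5' to 3' on the gene's strand). They were chosen, after the matches were seen, as examples from the stem cell, cell cycle and enterocyte lists. Capitals mark every match, on either strand, to one of 5 motifs. For E2F, the factors that switch on replication genes, the letters were TTTGGCGC or TTTCCCGC. For the CHR element, which times genes to mitosis, the letters were TTTGAA and nothing more. For TCF/LEF, the factors through which WNT signalling reaches its target genes, they were CTTTGAT in this search. The E-box that ASCL factors use was searched for as CAGCTG, which reads the same on both strands. The TATA box, a core promoter element near the start of many strongly tissue-restricted genes, was searched for as TATAAA. The letters CAAAGTCCA of the HNF4 factors were also searched for; none of the windows shown holds them. A match describes the letters in the window and is not evidence of binding.
Tnfrsf19, chr14:61037938-61038237, minus strand: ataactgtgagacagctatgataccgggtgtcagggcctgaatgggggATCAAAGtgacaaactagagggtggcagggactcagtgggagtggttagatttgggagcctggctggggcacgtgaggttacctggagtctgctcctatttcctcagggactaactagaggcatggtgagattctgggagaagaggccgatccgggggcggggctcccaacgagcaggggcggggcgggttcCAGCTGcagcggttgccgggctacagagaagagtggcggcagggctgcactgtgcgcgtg
Mcm6, chr1:128359656-128359955, minus strand: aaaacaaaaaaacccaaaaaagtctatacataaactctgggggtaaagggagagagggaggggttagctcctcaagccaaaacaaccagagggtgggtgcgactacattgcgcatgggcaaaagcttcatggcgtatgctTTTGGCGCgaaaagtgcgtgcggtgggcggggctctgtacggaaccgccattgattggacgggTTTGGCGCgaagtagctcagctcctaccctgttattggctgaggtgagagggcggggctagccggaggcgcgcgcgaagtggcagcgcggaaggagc
Cdc6, chr11:98907901-98908200, plus strand: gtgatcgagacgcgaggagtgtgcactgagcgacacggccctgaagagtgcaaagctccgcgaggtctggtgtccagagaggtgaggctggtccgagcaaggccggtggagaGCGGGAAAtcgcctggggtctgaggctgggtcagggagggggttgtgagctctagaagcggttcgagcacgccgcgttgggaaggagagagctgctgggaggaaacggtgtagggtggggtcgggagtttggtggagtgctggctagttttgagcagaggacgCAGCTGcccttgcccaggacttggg
Top2a, chr11:99024140-99024439, minus strand: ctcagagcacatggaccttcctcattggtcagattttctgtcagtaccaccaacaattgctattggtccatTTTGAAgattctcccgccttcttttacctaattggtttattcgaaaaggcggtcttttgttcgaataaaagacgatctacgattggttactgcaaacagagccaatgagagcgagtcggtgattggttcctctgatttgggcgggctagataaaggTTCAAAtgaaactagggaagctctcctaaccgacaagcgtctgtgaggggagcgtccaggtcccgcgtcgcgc
Krt20, chr11:99438104-99438403, minus strand: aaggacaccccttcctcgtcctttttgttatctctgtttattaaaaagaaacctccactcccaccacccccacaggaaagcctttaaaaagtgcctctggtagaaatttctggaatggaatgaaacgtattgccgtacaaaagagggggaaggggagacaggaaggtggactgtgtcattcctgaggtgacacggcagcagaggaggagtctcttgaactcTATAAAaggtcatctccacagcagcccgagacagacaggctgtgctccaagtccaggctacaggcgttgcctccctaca

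Of the 20 genes of the S phase list, 17 had a window and 7 of these (41.2%) held the E2F letters, compared with 1.80% of the 27025 genes with any window and 3.76% of the 7414 tested genes with one. Of the 1283 genes higher in members, 980 had a window and 9.39% of these held the E2F letters, against 1.69% of the 1182 windows of genes that were lower. The CHR letters stood in 13 of 17 windows of the G2 and M phase list (76.5%) and in 20.2% of all genes with a window. The TATA letters stood in 6 of 17 enterocyte windows (35.3%) against 15.7% of all genes with one, and the HNF4 letters in 2 of 17 (11.8%) against 0.555%. The TCF/LEF letters stood in 2 of 15 stem cell windows (13.3%, Tnfrsf19 and Sp5) against 4.29%. The CAGCTG letters stood in 14.4% of the windows of genes that were higher and 22.3% of those of genes that were lower, against 18.3% of all genes with one. They stood in 1 of 15 stem cell windows (6.67%) and 5 of 17 enterocyte windows (29.4%), but in 6 of the windows of the 15 genes with the largest increase (40.0%).

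To ask which genes accompany Lgr5, UMIs of member wells and of Lgr5-zero wells were summed per library, and the 6 sums were compared with edgeR's quasi-likelihood test with library as a block. Of 9745 genes tested, 1283 (13.2%) were higher and 1543 (15.8%) lower in Lgr5-high wells at an adjusted p of 0.05 or less. These are 2826 genes in either direction (29.0%), of which 2718 had the same sign in all 3 libraries. The numbers higher and lower were 505 and 855 with DESeq2, 575 and 721 with no library block, and 482 and 585 after thinning. They were 560 and 877 in the depth range and 759 and 1011 without het, with 823 higher without WT. The median log2 fold change of all tested genes was 0.01. Lgr5 itself was left out of the tested genes. The 3 libraries, which differ in genotype, served as replicates of this contrast. With library as a block, the p-values set the difference between the classes against its spread over these 3 plates. That spread was estimated with help from the other genes.

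The other genes used to define crypt base columnar cells were higher in the member wells, so the wells fit their label, with the reservation that Olfm4 was scarce. Smoc2, a secreted matrix protein of the crypt base, stood at 382 CPM in WT, 449 in het and 382 in Bud members and at 164, 104 and 167 CPM in Lgr5-zero wells. The lowest member sum exceeded the highest Lgr5-zero sum, and the log2 difference was 1.40 (SE 0.157, adjusted p = 2.53e-05). Gkn3, a gastrokine that marks stem cells in this tissue, stood at 61.1, 72.9 and 44.1 CPM against 7.20, 6.44 and 5.98. Its 2 sets of sums did not overlap either (log2 difference 3.11, SE 0.269, adjusted p = 2.8e-06). Olfm4, a secreted glycoprotein that is among the strongest stem cell markers in the intestine, reached only 16.2, 17.5 and 19.4 CPM in members (41, 40 and 54 UMIs) and 2.88, 1.43 and 1.496 CPM in Lgr5-zero wells (log2 difference 3.097, SE 0.480, adjusted p = 0.000372). An Olfm4 UMI was seen in 22.8% of WT, 18.6% of het and 26.4% of Bud members. At a common depth of 3000 UMIs the share was 4.14%, 5.71% and 6.76%, against 0, 0 and 1.72% of Lgr5-zero wells.

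Of the 23 genes of the stem cell list, 19 were tested, 17 were higher, 0 were lower and the median log2 difference was 1.53. Tnfrsf19, a WNT-induced receptor of the TNF family, was near 0 in Lgr5-zero wells, at 37.8, 25.8 and 27.6 CPM in WT, het and Bud against 4.32, 1.43 and 1.496 (log2 difference 3.58, SE 0.393, adjusted p = 2.22e-05). Ascl2, the transcription factor that sets stem cell fate under WNT control, stood at 203, 221 and 182 CPM against 51.9, 40.0 and 59.8. Slc12a2, a sodium, potassium and chloride cotransporter, gave the most UMIs of these, at 1246, 1120 and 983 CPM against 369, 231 and 473. None of these 3 genes had an Lgr5-zero sum as high as any member sum, and their log2 differences ran from 1.58 for Slc12a2 through 1.93 for Ascl2 to 3.58 for Tnfrsf19. Cdca7, Igfbp4, Cd44 and Sox9 were also higher, by 2.14, 2.41, 1.19 and 0.96 on the log2 scale. Mex3a (log2 difference -0.02) and Prom1 (-0.12) did not pass the test, and Prom1 was at 352 CPM in Bud members and 549 CPM in Bud Lgr5-zero wells. The genes Msi1, Nrn1 and Sp5 did not pass the filter on low counts. Sp5 was low in het and Bud only, at 1.31 and 1.08 CPM in members. In WT it stood at 23.6 CPM in members and 7.20 CPM in Lgr5-zero wells.

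**Figure D2:**
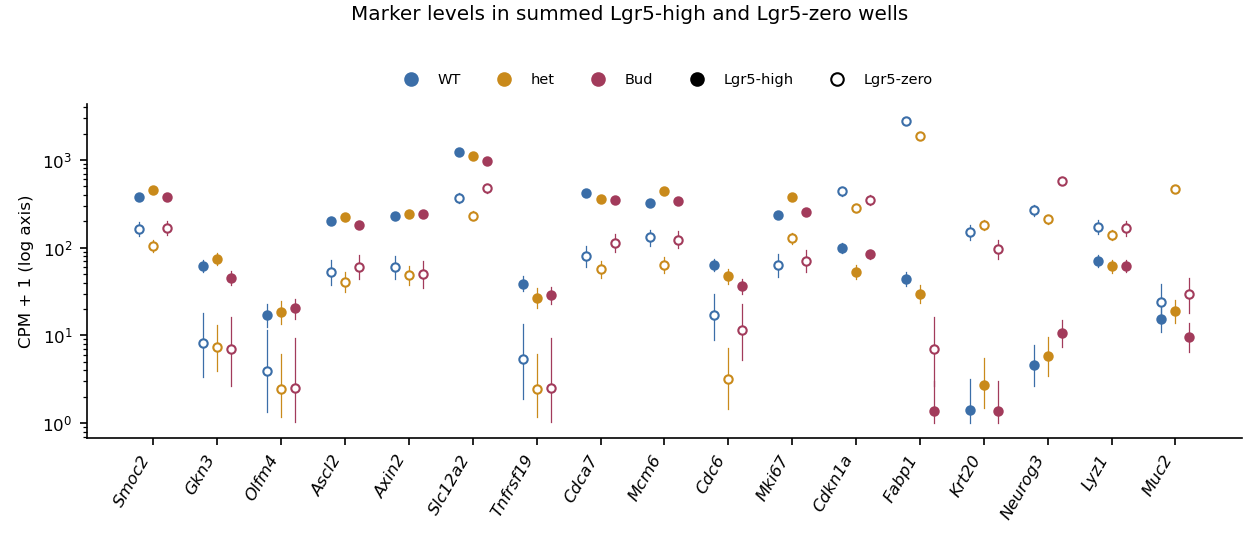
Level of 17 genes in summed Lgr5-high (filled) and Lgr5-zero wells (open) of WT, het and Bud, as CPM + 1 on a log axis, with exact Poisson 95% intervals of the sums as bars. The filled points of Smoc2 to Mki67 lie above the open ones in each library, while those of Cdkn1a, Krt20, Neurog3 and Lyz1 lie below.

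Genes that WNT signalling switches on followed the same direction. Of 23 listed WNT targets and feedback genes, 16 were tested, 12 were higher and 0 lower (median log2 difference 0.86). Axin2, the scaffold that shuts the pathway down again and is its most direct readout, stood at 226, 244 and 240 CPM in WT, het and Bud members and at 59.1, 47.2 and 49.4 CPM in Lgr5-zero wells (log2 difference 2.09, SE 0.143, adjusted p = 3.5e-07). Both sets of sums varied little among the 3 libraries and were far apart. The ligases that remove WNT receptors were higher too, Rnf43 by 1.29 and Znrf3 by 1.06, as was the boundary receptor Ephb3 at 143, 149 and 140 CPM against 59.1, 41.5 and 62.8 (log2 difference 1.33). Ephb2 (0.51), Myc (0.76) and Ccnd1 (0.70) were higher as well. Cdx1, Lgr4, Lrp6 and Nkd1 did not pass the test. In this list, 9 of 15 genes tested were higher when only wells of 8000 to 20000 UMIs were used.

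DNA replication genes were higher in members without exception among those tested. All 19 tested genes of the 20-gene S phase list rose, with a median log2 difference of 1.76. Mcm6, a subunit of the replicative helicase, stood at 318, 444 and 342 CPM in members and 130, 62.2 and 123 CPM in Lgr5-zero wells (log2 difference 1.77). Cdc6, which loads that helicase and whose window is printed above, stood at 62.7, 46.3 and 35.2 CPM against 15.8, 2.15 and 10.5 (log2 difference 2.46, SE 0.361, adjusted p = 0.000253). Pcna, the sliding clamp, was at 1003, 822 and 858 CPM against 553, 241 and 320 (1.23). For Mcm6, Cdc6 and Pcna alike the lowest member sum lay above the highest Lgr5-zero sum. Several of the 15 genes with the largest increase act in replication or its surveillance, namely Rad51b (2.61), Brca1 (2.44), Chek1 (2.31), Ticrr (2.27) and Chaf1b (2.18). In the depth range 17 of 18 S phase genes were higher. Among wells with no UMI of the G2 and M phase list after thinning 16 of 17 were.

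Mitotic genes were higher as well, with fewer calls and a smaller difference in the depth range. Of 20 genes of the G2 and M phase list 18 were higher (median log2 difference 1.23). Mki67, the proliferation antigen, stood at 232, 376 and 253 CPM against 61.9, 127 and 70.3 (log2 difference 1.61, SE 0.131, adjusted p = 1.54e-06). Top2a, which untangles DNA before division, stood at 399, 339 and 319 CPM against 128, 83.7 and 34.4 (2.02), and Cdk1 at 206, 178 and 163 against 72.0, 44.3 and 41.9 (1.70). The sums of the 2 classes did not overlap for these 3 genes. Ccnb2 (0.38) and Hmmr (0.15) did not pass the test. When both classes were restricted to wells of 8000 to 20000 UMIs 5 of the 20 were higher, and after thinning 9 of 16 were. The cause of this drop was not tested. Over all wells the list summed to 2446, 2311 and 2262 CPM in WT, het and Bud members against 923, 982 and 740. In the depth range, members were split into 3 classes from lowest to highest Lgr5 CPM. In WT these stood at 1371, 2047 and 882 CPM against 1077 in Lgr5-zero wells. In het they stood at 1585, 2491 and 1029 against 1339, and in Bud at 1316, 1762 and 1439 against 736. Of the members, 55.9% in WT, 42.1% in het and 47.3% in Bud held at least 3 UMIs of the list at 3000 UMIs per well, against 22.4%, 26.7% and 27.6% of Lgr5-zero wells.

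Ribosome biogenesis genes moved with the replication genes by a smaller amount: 16 of 20 were higher, 0 were lower and the median log2 difference was 0.79. Dkc1, which modifies ribosomal RNA, rose by 1.08, and the nucleolar GTPase Gnl3, also known as nucleostemin, by 1.01. The cell cycle inhibitor Cdkn1a (p21) went the other way, at 98.5, 52.4 and 82.9 CPM in members and 436, 281 and 350 CPM in Lgr5-zero wells (log2 difference -2.32, SE 0.122, adjusted p = 2.83e-08). Its sums in the 2 classes were well apart in each library, while 8 of the 11 tested p53 target genes did not pass the test and the list's median was 0.05. Of all tested genes 29.0% passed in either direction, so the p53 list was near that share. Rgcc, a regulator of cell cycle, was among the 15 largest increases at 198, 223 and 201 CPM against 41.8, 30.0 and 40.4 (2.40).

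Large increases were also seen in genes outside the lists. Fstl4, a follistatin-like protein, stood at 33.5, 34.9 and 58.5 CPM in WT, het and Bud members and 1.44, 1.43 and 8.97 CPM in Lgr5-zero wells (log2 difference 3.48, SE 0.373, adjusted p = 1.84e-05). Nr2e3, a nuclear receptor best known from photoreceptors, was at 42.2, 36.7 and 46.3 CPM against 4.32, 3.58 and 5.98 (3.07). Neither gene reached in any Lgr5-zero sum the level of the lowest member sum. Prelp, a matrix proteoglycan, rose by 2.68, the secreted phospholipase Pla2g5 by 2.24 and the actin bundler Pls3 by 2.20.

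EGF, NOTCH and BMP signalling, which form the niche of these cells, were each read from a gene list. Over all tested genes, 13.2% were higher and 15.8% lower. In the EGF receptor and ERK list, 5 of 13 tested genes were higher and 1 lower (median log2 difference 0.48): the ERK-driven factors Etv4 (1.59) and Etv5 (1.10) and the receptor brake Lrig1 (1.16) rose, while the ligand Areg fell, at 11.4, 24.9 and 12.9 CPM against 34.6, 38.6 and 74.8 (-1.65, adjusted p = 0.00125). In the NOTCH list 3 of 10 were higher and 1 lower (0.28). The receptor Notch1 (0.84) and its target Hes1, at 278, 365 and 270 CPM against 161, 169 and 144 (0.83), rose. The ligand Dll1, which secretory precursors present to their neighbours, fell by 1.05 on the log2 scale (adjusted p = 0.0144). In the BMP response list 1 of 8 was higher and 1 lower, near the shares over all tested genes. The one that was higher, Id2 (0.52), had a log2 difference of -0.23 in the depth range.

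**Figure D3:**
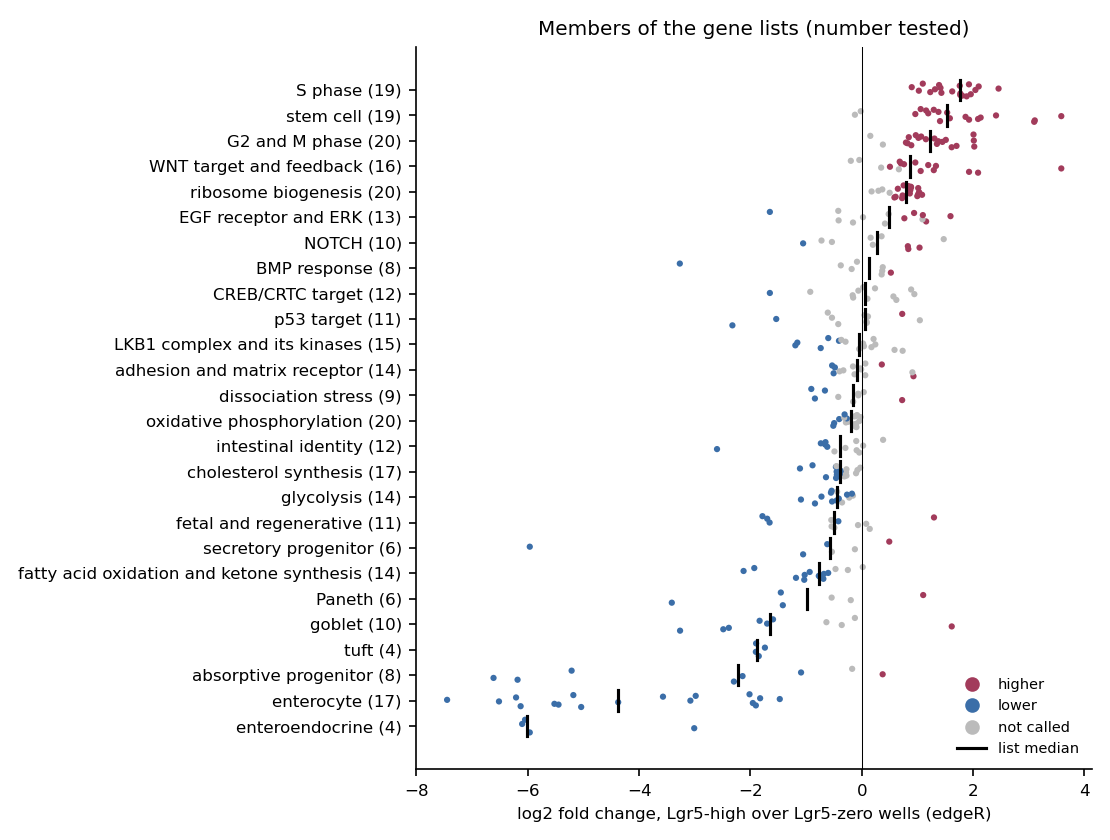
log2 fold change of Lgr5-high over Lgr5-zero wells (edgeR, 6 sums) for each tested gene of the lists, coloured by call, with the list median as a bar and the number tested in parentheses. Replication, stem cell and mitotic genes lie to the right (medians 1.76, 1.53 and 1.23), and enterocyte and enteroendocrine genes to the left (-4.38 and -6.01).

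Enterocyte genes were lower in the summed members in every case tested, 17 of 17 of the 20 listed, with a median log2 difference of -4.38. Well by well this held for the median of WT and het but not of Bud. The median well had 1241 CPM of the whole list in members against 4287.4 in Lgr5-zero wells in WT, and 1296 against 5177.8 in het. In Bud the median was 1184 CPM in members against 1023 in Lgr5-zero wells, and 66.2% of members against 51.7% of Lgr5-zero wells held 3 or more UMIs of the list after thinning. The Bud sums still differed, at 1239 against 4745.3 CPM, and the highest Bud Lgr5-zero well stood at 41667 CPM against 4669.3 for the highest member. Sis, the brush border enzyme sucrase-isomaltase, stood at 16.2, 33.2 and 5.74 CPM in WT, het and Bud members against 1576, 2150 and 682 CPM in Lgr5-zero wells (log2 difference -6.52, SE 0.143, adjusted p = 5.67e-12). Krt20, a keratin of the villus tip, was all but missing from members, at 0.394, 1.75 and 0.359 CPM against 148, 179 and 95.7 (adjusted p = 1.44e-09). Fabp1, a fatty acid binding protein of absorptive cells, was at 43.0, 28.8 and 0.359 CPM against 2807, 1872 and 5.98. Its Bud Lgr5-zero sum lay below the WT and het member sums, so for Fabp1 the 2 classes separate within each library and not across libraries. After thinning, a Fabp1 UMI was found in 8.28% of WT, 8.57% of het and 0 of 148 Bud members, against 50.0%, 39.6% and 1.72% of Lgr5-zero wells. Members were not free of absorptive transcripts: Prap1, a secreted acidic protein of the epithelium, remained at 237, 258 and 411 CPM against 846, 1319.9 and 1172 (-2.02). The glucose transporter Slc5a1 remained at 155, 199 and 127 CPM against 439, 638 and 218 (-1.47). RNA released by other cells can also reach a well, and its part in these levels was not tested.

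Enteroendocrine genes were nearly missing from members. All 4 tested genes of the list were lower, and 0 of the 433 member wells held 3 or more UMIs of the list after thinning. Neurog3, the transcription factor that commits cells to the endocrine lineage, was at 3.55, 4.80 and 9.69 CPM in members against 266, 209 and 582 CPM (log2 difference -5.96, SE 0.173, adjusted p = 1.02e-10), and 1 well held 63.0% of the Bud members' Neurog3 UMIs. The later endocrine factor Pax4 was at 0.394, 0.437 and 0.359 CPM against 51.9, 22.9 and 16.5. The wells with 1 Lgr5 UMI, which stand in neither class, had 193 CPM of Neurog3 in WT, 100.5 in het and 47.1 in Bud, above the member sums of the same library. Wells with 2 Lgr5 UMIs had 3.16, 462 and 3.49 CPM, which is above the member sum in het and below it in WT and Bud.

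Goblet and Paneth genes were split. Of 10 tested goblet genes 6 were lower and 1 higher (median log2 difference -1.65). The trefoil peptide Tff3 was at 229, 472 and 292 CPM in members and 785, 1576 and 3547 in Lgr5-zero wells (-2.49), and the mucus protein Fcgbp at 175, 142 and 58.8 against 360, 1312 and 331 (-2.39). Muc2, the main gel-forming mucin, was at 14.2, 17.9 and 8.61 CPM against 23.05, 462 and 28.4 (-3.26), with 49.0% of the het Lgr5-zero UMIs in 1 well. Clca1, a secreted protein of mucus, was higher, at 30.3, 45.4 and 23.7 CPM against 11.5, 13.6 and 4.49 (1.62, adjusted p = 0.000714). Of 6 tested Paneth genes 3 were lower and 1 higher. The lysozyme gene Lyz1 was at 69.7, 60.7 and 60.6 CPM against 170, 139 and 165 (-1.42), and 1 well held 79.9% of the Lyz1 UMIs of the het Lgr5-zero wells. Pnliprp2, a pancreatic-type lipase, was higher in members, at 91.8, 94.3 and 19.4 CPM against 47.5, 36.5 and 5.98 (1.10, adjusted p = 0.00116).

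Some member wells carried secretory transcripts in quantity. At 3000 UMIs per well, 10 WT, 14 het and 17 Bud members held 3 or more UMIs of the goblet list, and 9, 16 and 6 held as many of the Paneth list. The goblet shares were 6.90%, 10.0% and 11.5% of members against 25.9%, 15.8% and 41.4% of Lgr5-zero wells. The Paneth shares were 6.21%, 11.4% and 4.05% against 12.1%, 7.92% and 17.2%, so in het the member share was the higher. Over 10000 CPM of the goblet list was found in 2 WT, 6 het and 3 Bud members, of the Paneth list in 0, 1 and 1, and of the tuft list in 0, 1 and 0. A well with 2 sorted cells cannot be told apart from a cell that expresses both sets, and doublets were not called. Without the wells above 10000 CPM, 1302 genes were higher and 1597 lower, close to the counts with them, and 17 of 19 stem cell genes were higher. Markers of cells from outside the epithelium were at the floor: summed over members, the 5 immune markers present in the tables, of 8 listed, gave 0.394, 1.31 and 0.717 CPM in WT, het and Bud. The 7 mesenchymal markers present, of 8, gave 0.788, 0.437 and 2.51 CPM, and the 3 endothelial markers present, of 6, gave 0.394, 1.31 and 3.23 CPM.

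Progenitor lists fell between these extremes. Of 8 tested absorptive progenitor genes 6 were lower and 1 higher (median log2 difference -2.22). Dmbt1, a secreted scavenger protein, was at 138, 392 and 42.3 CPM in members against 667, 1296 and 281 (-2.30), while Reg3a was at 0, 0.437 and 0.359 CPM against 46.1, 38.6 and 10.5. Reg genes have near-identical copies, so counts of a single member are uncertain. Of 6 secretory progenitor genes 3 were lower and 1 higher, the latter being Hes6 (0.49, adjusted p = 0.0351). Atoh1, the switch into the secretory lineage, was at 7.49, 10.5 and 18.7 CPM against 13.0, 7.15 and 17.9 and did not pass the test. The general regulator of intestinal identity Hnf4a was at 493, 511 and 443 CPM against 448, 514 and 461 and did not pass the test, while its paralogue Hnf4g fell, at 44.9, 53.3 and 45.6 CPM against 248, 423 and 167 (-2.60).

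Among metabolic lists, members had lower fatty acid oxidation genes, 11 lower and 0 higher of 14 tested (median log2 difference -0.76). Ppara, the nuclear receptor that turns on this program, was at 34.7, 17.9 and 14.3 CPM against 109, 113 and 43.4 (-2.12), and the mitochondrial carnitine enzyme Cpt2 fell by 1.18 on the log2 scale. Without the library block and with thinned wells 6 genes of this list were lower. Glycolysis genes were lower in 10 of 14 (median -0.45), among them Gapdh (-0.72) and Ldha (-0.55); leaving out het left 3 of 14. Cholesterol synthesis genes were lower in 9 of 17 (median -0.39), and 1 of 17 without the block. Oxidative phosphorylation genes differed little, with 5 of 20 lower, 0 higher and a median of -0.19. Over all tested genes 13.2% were higher and 15.8% lower.

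The LKB1 complex and its kinases showed smaller differences. Of 15 tested genes 0 were higher, 5 lower and 10 did not pass (median log2 difference -0.05). Over all tested genes 13.2% were higher, 15.8% lower and 29.0% passed in either direction, so the share of the list that passed was near that. Prkaa2, a catalytic subunit of AMPK, was at 24.8, 29.3 and 17.6 CPM in WT, het and Bud members against 50.4, 47.9 and 53.8 (log2 difference -1.19, SE 0.216, adjusted p = 0.00113). The sums of the 2 classes did not overlap. The AMPK subunit Prkag2 fell by 1.16 on the log2 scale and Cab39, the scaffold of the LKB1 complex, by 0.74. After thinning 1 of 10 genes of this list was lower. Stk11 did not pass the test (0.73, adjusted p = 0.243). Of 12 CREB and CRTC target genes 1 was lower and 0 higher, below the 15.8% and 13.2% over all tested genes. Of 11 fetal and regenerative genes 4 were lower and 1 higher, with S100a6 (-1.66) and Emp1 (-1.70) lower and Cyr61 (1.297) higher.

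Members were themselves mixed in cell cycle state. At 3000 UMIs per well, 81 WT, 59 het and 70 Bud members held 3 or more UMIs of the G2 and M phase list, 36, 42 and 46 held 1 or 2, and 28, 39 and 32 held 0. The summed Lgr5 level of these 3 classes, from most to fewest mitotic UMIs, was 368, 455 and 472 CPM in WT, 452, 480 and 768 CPM in het, and 384, 440 and 520 CPM in Bud. The wells with most mitotic UMIs were also the deepest, with a median of 18210 UMIs against 15074.5 in wells without one in WT, 17445 against 13585 in het and 21470 against 16709 in Bud. A shallower well needs a higher Lgr5 CPM to reach 3 UMIs and be a member, and the part of depth in this order was not tested. The S phase list ran the other way, at 4207.1, 4012.1 and 2516.3 CPM in WT, 4010.2, 3383.2 and 2894.3 in het, and 3720.1, 3389.1 and 3201.4 in Bud. These are descriptions of 1 library each, and Lgr5 had chosen the wells.

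Within members, some stem cell transcripts were highest in the wells with the highest Lgr5 level, and others were so in some libraries only. Among members of 8000 to 20000 UMIs split into 3 classes of equal size by Lgr5 CPM, Smoc2 stood at 359, 415 and 457 CPM from the lowest to the highest class in WT, at 331, 490 and 639 in het, and at 347, 347 and 436 in Bud, while Lgr5-zero wells of that depth stood at 217, 105 and 144 CPM. The summed stem cell list, from which Lgr5 was left out, stood at 4345.1, 4729.3 and 5354.1 CPM in WT, 4131.3, 5156.9 and 6499.6 in het, and 4418.0, 4396.1 and 5103.9 in Bud. Even the lowest class of members stood above the Lgr5-zero wells in each library, which were at 1944.3, 1395.5 and 2241.9 CPM. Tnfrsf19 was highest in the highest class in WT (30.2, 46.2 and 66.1 CPM) and het (18.5, 33.3 and 70.3), but in Bud the middle class was highest (20.7, 43.4 and 27.6). Ascl2 was lowest in the highest class in WT (195, 242 and 187 CPM) and Bud (192, 223 and 172), and rose with the class in het only (114, 227 and 361). Cdca7 was likewise lowest in the highest class in Bud (386, 414 and 313 CPM), and Gkn3 was highest in the lowest class in WT (87.7, 65.2 and 77.6). Olfm4 stood at 36.3, 34.7 and 18.4 CPM in Bud. These classes are descriptions with no test.

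The threshold itself cut a gradient. Wells with 2 Lgr5 UMIs, just outside, numbered 23 in WT, 10 in het and 27 in Bud, and wells with 3, just inside, 28, 21 and 19. Smoc2 was at 249, 159 and 248 CPM just outside and 289, 251 and 244 CPM just inside. Slc12a2 was at 950, 476 and 760 CPM outside and 1096.3, 674 and 968 inside. Fabp1 was at 596 and 518 CPM outside and 39.0 and 72.2 inside in WT and het, and 0 on both sides in Bud.

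**Figure D4:**
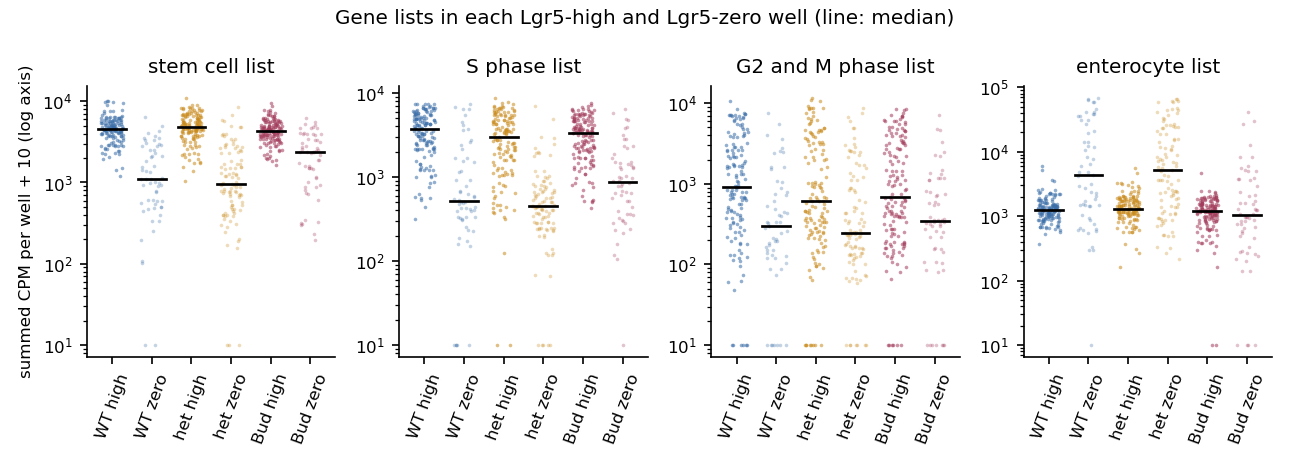
Summed CPM + 10 (log axis) of 4 gene lists, as titled (the stem cell list without Lgr5), in every Lgr5-high and Lgr5-zero well of WT, het and Bud, with the median as a line. Stem cell list medians are 4536.3, 4795.9 and 4350.8 CPM in members against 1094.0, 940 and 2331.1, and the enterocyte list spreads much further in Lgr5-zero wells than in members, although its Bud medians are 1023 and 1184 CPM.

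To find genes whose pattern over wells was most like that of Lgr5, Spearman correlations were computed within each library over all wells thinned to 3000 UMIs, for 3792 genes. These coefficients describe wells that share a plate and a depth and carry no p. Slc12a2 had the highest mean (0.377; 0.368 in WT, 0.540 in het and 0.222 in Bud), followed by Clca4 (0.348), App (0.300), Pabpc1 (0.294), Axin2 (0.293), Cdca7 (0.287) and Smoc2 (0.278). All are weak, as sparse counts allow. The most opposite gene was Cdkn1a at -0.231, then Akr1c19 at -0.226.

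How Lgr5-high wells differ between genotypes was described without a test, since each genotype is 1 library. A gene was counted as past the fold when its ratio after adding 10 CPM to both values was at least 2, among genes with 10 or more UMIs. In members, 62 of 10720 genes (0.578%) were higher and 65 (0.606%) lower in het than in WT. In Bud against WT 48 of 10802 (0.444%) were higher and 82 (0.759%) lower, and in Bud against het 90 of 10771 (0.836%) were higher and 118 (1.10%) lower. These comparisons share libraries with each other. All 20 genes named in each comparison had the same sign in Lgr5-zero wells, and 13, 18 and 19 of them were past the fold there too, so most of the differences below were not limited to Lgr5-high wells.

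Igfbp4 and Sp5 were the only genes of the stem cell list past the fold between the 3 sets of members. Of 20 measured stem cell genes, 1 was past the fold upward in het against WT (Igfbp4) and 1 downward (Sp5). Over all genes these shares were 0.578% and 0.606%. In Bud against WT 0 and 1 (Sp5 again) were past the fold, against 0.444% and 0.759% of all genes. Of 19 S phase genes and 20 G2 and M phase genes, 0 were past the fold in any of the 3 comparisons among members. At the shares over all genes, 0 in lists this short says little about their members. Among Lgr5-zero wells, 14 S phase genes were lower in het than in WT and 8 higher in Bud than in het. The median log2 ratios of the list there were -1.15 and 0.88, against -0.01 and 0.01 over all measured genes. The share of all genes past the fold in Lgr5-zero wells was not computed. Igfbp4, which binds insulin-like growth factors, stood at 141, 508 and 109 CPM in WT, het and Bud members, 3.59 times as high in het as in WT (counting interval 3.19 to 4.05). Igfbp4 had a UMI in 97.9% of het members, and its Lgr5-zero sums had the same order at 15.8, 104 and 14.96 CPM. Sp5, a WNT-induced repressor, was at 23.6, 1.31 and 1.08 CPM in members, 18.0-fold lower in het than in WT (counting interval 5.89 to 89.9). The LKB1 list had 0 of 17 measured genes past the fold in any comparison, which at the shares over all genes says little.

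Bud members carried some transcripts that were rare in or missing from WT members. Pla2g2a, a secreted phospholipase of Paneth cells that kills bacteria, was at 0, 10.5 and 215 CPM in WT, het and Bud members, at least 182-fold higher in Bud than in WT against a floor of 3 UMIs over the WT sum. It had a UMI in 76.4% of Bud members, and in Lgr5-zero wells it stood at 11.5, 7.87 and 184 CPM. Ggh, a folate hydrolase, was at 16.2, 24.0 and 183 CPM (11.3 times WT, counting interval 8.25 to 16.0), and Cela1, a pancreatic-type elastase, at 28.4, 20.5 and 144 CPM. The het value lay near the WT value for Ggh and Cela1. Anxa1, an annexin raised in fetal and injured epithelium, was at 9.06, 8.74 and 113 CPM, with 37.3% of its Bud UMIs in 1 well. S100a6, a calcium-binding protein of the same list, was at 67.0, 54.2 and 272 CPM in members and at 145, 247 and 683 CPM in Lgr5-zero wells. Of 13 measured fetal and regenerative genes, 4 were past the fold upward in Bud members against WT (Anxa1, Anxa3, Il33 and S100a6) and 0 downward. Over all genes 0.444% were higher and 0.759% lower. In Lgr5-zero wells 5 genes of the list were past the fold upward and 1 downward, so the rise was not limited to members. Slc1a2, a glutamate transporter, was at 0, 0 and 38.4 CPM in members and at 1.44, 0 and 8.97 CPM in Lgr5-zero wells, where it was not past the fold.

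Fos and Egr1, immediate early genes, were past the fold upward against WT in the members of both het and Bud. Fos stood at 28.8, 140 and 186 CPM in WT, het and Bud members (4.86 and 6.46 times WT, counting intervals 3.76 to 6.35 and 5.05 to 8.37) and at 79.2, 122 and 124 CPM in Lgr5-zero wells. Egr1 stood at 20.1, 96.5 and 62.4 CPM in members. In Lgr5-zero wells it stood at 60.5, 101 and 47.9 CPM, so there Bud lay below WT. Of 11 measured dissociation stress genes 4 were past the fold upward in het (Fos, Fosb, Junb and Egr1), and of 10 in Bud 2 were (Fos and Egr1). Over all genes these shares were 0.578% in het and 0.444% in Bud. In Lgr5-zero wells 1 gene of the list was past the fold upward in het and 1 in Bud. Cell dissociation induces the genes of this list, and its part in the difference was not tested. Nr4a1, a CREB-responsive nuclear receptor, was at 7.09, 10.0 and 43.0 CPM. Of 15 measured CREB and CRTC targets 3 were past the fold upward in Bud against WT (Nr4a1, Fos and Pde4b) and 0 downward. In Lgr5-zero wells 3 of this list were likewise past the fold upward and 0 downward.

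**Figure D5:**
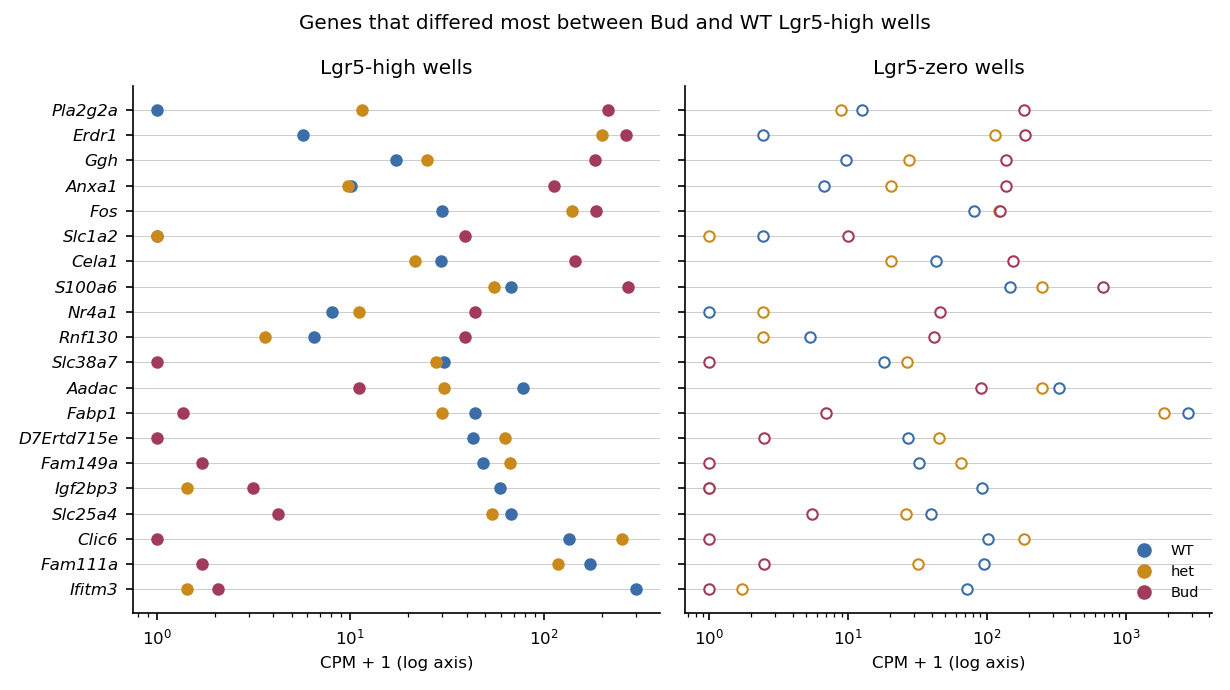
Level (CPM + 1, log axis) of the 20 genes that differed most between Bud and WT members, in Lgr5-high (left) and Lgr5-zero wells (right) of WT, het and Bud. In 18 of the 20 the Bud and WT values are past the fold in the right panel as well, the exceptions being Fos and Slc1a2.

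Other genes were near 0 in het, in Bud or in both. Ifitm3, an antiviral membrane protein, was at 299, 0.437 and 1.08 CPM in WT, het and Bud members, and Igf2bp3, a fetal RNA-binding protein, at 58.3, 0.437 and 2.15 CPM. Both were likewise low in the Lgr5-zero wells of het and Bud, at 0.715 and 0 CPM for Ifitm3 against 70.6 in WT. Clic6, a chloride channel protein, was at 135, 252 and 0 CPM, at least 126-fold lower in Bud than in WT. Fam111a was at 173, 118 and 0.717 CPM, and the mitochondrial ADP/ATP carrier Slc25a4 at 66.6, 52.9 and 3.23 CPM. These patterns were present in Lgr5-zero wells too, where Clic6 stood at 101, 185 and 0 CPM. Erdr1 was at 4.73, 200.5 and 266 CPM in members, 42.4 times WT in het (counting interval 24.0 to 82.7), and lies in a repetitive region shared by the sex chromosomes, so its counts are uncertain.

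Enterocyte genes past the fold in Bud, against WT or het, were lower in members and in Lgr5-zero wells alike. Of 16 measured enterocyte genes 5 were lower past the fold in Bud against WT members (Fabp1, Apoc3, Anpep, Mttp and Adh1) and 0 higher. Over all genes 0.759% were lower and 0.444% higher. In Lgr5-zero wells 12 of the list were lower, where the share of all genes was not computed. Of 14 measured in Bud against het members 7 were lower, against 1.10% of all genes. Dmbt1, named above, was 9.26-fold lower in Bud than in het members (counting interval 7.63 to 11.3). In het against WT, 5 of 7 measured tuft genes were higher, but 1 het well of 18216.1 CPM held 93.2% of the UMIs of the list, and without it 0 were past the fold.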

How the data were processed

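Organoid cells were sorted into 384-well plates and counted by SORT-seq, 1 plate per group. The deposited tables hold raw UMI counts per gene and well, and the authors' second set of tables holds estimated counts of transcripts, corrected for identifier collisions, which were rounded and used as an alternative only. Per the submitters' processing notes, the tools were STAR 2.6.1, featureCounts 1.5.2 and Seurat 4.1.0 on build GRCm38. The tables list no mitochondrial genes, and the sources used here state neither strand handling nor multi-mapping.

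Spike-in rows were dropped, wells of at least 3000 UMIs were kept, and doublets were not called. UMIs were summed per library and class, and edgeR 4.0.16 in R 4.3.3 was run on the sums (filterByExpr, TMM, library as block, quasi-likelihood test, Benjamini-Hochberg over all tested genes, threshold 0.05); the script was tested on simulated data. DESeq2 1.42.0 was an alternative. Residual degrees of freedom were 2, and the biological coefficient of variation was 0.112. Between libraries, CPM, exact Poisson intervals and exact conditional intervals of ratios were given with no test. Nothing in the labels says that the plates came from separate cultures of 1 line. The p-values thus cover only how the difference between the classes varied over these plates.

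Genes were named by a rule: the 15 largest and 15 smallest log2 fold changes among called genes with 1 sign in all libraries and at least 20 CPM in the higher class, up to 4 members of each list, 10 genes each way between libraries seen in 10% or more of the higher library's member wells, and a set of markers; other list members are named as examples chosen after their values were seen, and some genes that the rule names are not reported here. The members and the gene lists were chosen with earlier results of these data known. Promoter windows came from RefSeq (GRCm38.p6).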

Additional observations from a re-analysis of the deposited data

Results flagged for a closer look

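The fetal organoid library (genotype WT) and the Lkb1 -/- library marked Cys were not part of the comparisons, and the rule for Lgr5-high wells found members there as well. The fetal library had 87 such wells of 369 (23.6%), and the Cys library had 4 of 316 (1.27%). The fetal wells with exactly 3 Lgr5 UMIs numbered 32 and had 0 CPM of Smoc2, against 289 CPM in the WT small intestinal wells with 3 Lgr5 UMIs. The 2 Cys wells with 3 Lgr5 UMIs had 0 CPM of Smoc2 and 338 CPM of Gkn3.

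Itln1, an intelectin of Paneth and goblet cells, went in opposite directions in 2 libraries. Its log2 ratio of Lgr5-high over Lgr5-zero wells, with 10 CPM added, was 1.03 in WT but -1.15 in het, while Bud had 0.31. The difference was not tested, since each library is 1 plate, and 81.3% of the Itln1 UMIs of the het Lgr5-zero wells came from 1 well.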

How the results depend on the processing

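With DESeq2 505 genes were higher and 855 lower in Lgr5-high wells, with every well thinned to 3000 UMIs 482 and 585, with only wells of 8000 to 20000 UMIs 560 and 877, and with only wells without a G2 and M phase UMI, an alternative added after seeing the data, 480 and 580. DESeq2 tested the same 9745 genes on the same sums, while the other 3 settings use fewer UMIs or wells and test fewer genes; the cause of the drop was not tested. With no replicate block 575 genes were higher and 721 lower; the library was the block, since both classes of a plate share it, and all groups carry replicate number 1, so no other pairing was possible. Leaving out 1 library at a time gave 759 to 1354 genes higher and 1011 to 1585 lower (without WT 823 higher, without het 759 higher and 1011 lower). Genes of the G2 and M phase list that were higher numbered 9 after thinning and 5 in the depth range. Among wells chosen for having no such UMI after thinning, 1 of 3 tested was higher. That choice uses the list's own UMIs, so this count says nothing about the list. Fatty acid oxidation genes that were lower numbered 6 with no block and 6 after thinning. Of 1719 values of named genes described here 1571 kept their direction and side of the threshold, 131 no longer passed, 15 newly passed and 2 reversed: Id2 (-0.23) in the depth range and Itga3 (0.13) after thinning.

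Between libraries the counts past the fold followed the added CPM. With 1 CPM added, 339 genes were higher and 395 lower in het against WT, 288 and 410 in Bud against WT, and 420 and 507 in Bud against het. With 50 CPM they were 7 and 8, 11 and 17, and 15 and 17. After thinning they were 187 and 205, 157 and 192, and 202 and 283. In the depth range, 125 were higher and 100 lower in het against WT, 95 higher in Bud against WT and 187 lower in Bud against het. The share of Lgr5-high wells was 39.4% in WT, 36.2% in het and 39.7% in Bud at 5 Lgr5 UMIs, 65.8% in WT in the depth range, and 47.4% in WT and 49.2% in Bud after thinning with 1 UMI. Depth limits the low genes: a WT Lgr5-zero well of median depth allows 331 CPM of a gene at 0 UMIs.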

Other observations

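Intestinal identity genes were in part lower in Lgr5-high wells, while adhesion genes passed the test about as often as all tested genes did, of which 13.2% were higher and 15.8% lower. Of 14 tested adhesion and matrix receptor genes 2 were higher, 3 lower and 9 did not pass (median log2 difference -0.08): Itga6, a laminin receptor subunit of the crypt base, rose by 0.93, while its relative Itga3 fell by 0.51 on the log2 scale. Of 12 tested intestinal identity genes 5 were lower and 0 higher (median -0.39), with Vil1 (-0.74), an actin bundler of the brush border, Cdh17 (-0.66) and Klf5 (-0.65) among them. Of 9 tested dissociation stress genes 1 was higher and 3 lower (median -0.16), with Jun (0.72) higher and Btg2 (-0.91) lower. All 4 tested tuft cell genes were lower (median -1.87), and 0 of the 6 MHC class II genes, 5 immune, 7 mesenchymal and 3 endothelial markers present in the tables were abundant enough to be tested.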
